A study of Mus musculus with 8 samples.

Results

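The haemoglobin and red cell genes described here are 8 genes that mark blood carried along when a tissue is dissected: the alpha globin genes Hba-a1 and Hba-a2, the adult beta globin genes Hbb-bs and Hbb-bt, the embryonic beta-like globin gene Hbb-y, and the red cell genes Alas2, Slc4a1 and Klf1. They were chosen by name, and all 8 were found among the 41079 genes of the deposited count tables. RNA was sequenced from organ of Corti, the strip of sensory and supporting cells that detects sound in the cochlea, dissected from mice on the day of birth (P0). The labels give 4 libraries of a conditional Prox1 knock-out, in which Cre recombinase driven from Emx2 acts on a floxed Prox1 allele, and 4 wildtype libraries. The labels do not give the strain, the sex, the number of animals behind a library or the Cre and flox alleles that the wildtype mice carry. Whether each library of a group is its own animal is not said either. The spread that p-values rest on is therefore that between these libraries, and it may be technical.

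Haemoglobin carries oxygen in red blood cells and is built from alpha-like and beta-like globin chains, each holding a haem group. Red cells of mammals lose their nucleus, but young ones released into the blood still hold globin mRNA, so blood in a tissue brings globin reads into its RNA. Embryonic globins such as Hbb-y serve the first red cells of the embryo and give way to adult globins before birth.

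The alpha globin genes are near-identical copies of each other in their coding parts, and so are the adult beta globin genes. This limits how far their counts can be told apart. The parts of their transcripts outside the coding bases were not compared. Over the 429 coding bases compared, Hba-a1 and Hba-a2 differed at 1 base, and the longest identical stretch ran for 380 bases. Over 444 coding bases Hbb-bs and Hbb-bt also differed at 1 base, with an identical stretch of 416 bases. Hbb-bs and Hbb-y differed at 114 of 444 bases, so Hbb-y reads are distinct from adult beta reads. The stretches around the differing base are shown to let the copies be compared. They come from the GENCODE vM21 transcripts on GRCm38, cover coding bases 351 to 410 for the alpha and 385 to 444 for the beta genes, and carry the differing base as a capital.
Hba-a1 (chromosome 11): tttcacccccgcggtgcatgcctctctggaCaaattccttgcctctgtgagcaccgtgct
Hba-a2 (chromosome 11): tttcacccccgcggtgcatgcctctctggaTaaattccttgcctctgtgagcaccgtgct
Hbb-bs (chromosome 7): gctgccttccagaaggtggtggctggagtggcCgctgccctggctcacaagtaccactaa
Hbb-bt (chromosome 7): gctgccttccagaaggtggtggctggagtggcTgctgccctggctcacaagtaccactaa
How reads that match several places were counted is not given in the sources used here, so the split between Hba-a1 and Hba-a2, and between Hbb-bs and Hbb-bt, is uncertain. Values of the summed copies are therefore given beside those of the single genes.

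The 250 bases upstream of the members' transcription starts were also read, from the RefSeq promoter table on GRCm38.p6, which matched 7 of the 8 members. Capitals mark, on either strand, GATAA (the letters bound by GATA factors), CCNCNCCC (the CACCC-type letters bound by Krüppel-like factors such as Klf1), CCAAT and TATAA. Stretches that hold overlapping matches are printed as 1 run of capitals. The shown windows are those of an alpha gene, both adult beta genes and Alas2. They lie at chr11:32296242-32296491 (plus strand, Hba-a2), chr7:103827929-103828178 (minus strand, Hbb-bs), chr7:103813924-103814173 (minus strand, Hbb-bt) and chrX:150547167-150547416 (plus strand, Alas2).
Hba-a2 upstream: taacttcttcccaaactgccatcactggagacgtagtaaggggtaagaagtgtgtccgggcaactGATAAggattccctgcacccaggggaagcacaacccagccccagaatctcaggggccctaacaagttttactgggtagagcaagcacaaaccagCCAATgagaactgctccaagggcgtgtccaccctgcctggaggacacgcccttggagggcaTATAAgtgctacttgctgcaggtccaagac
Hbb-bs upstream: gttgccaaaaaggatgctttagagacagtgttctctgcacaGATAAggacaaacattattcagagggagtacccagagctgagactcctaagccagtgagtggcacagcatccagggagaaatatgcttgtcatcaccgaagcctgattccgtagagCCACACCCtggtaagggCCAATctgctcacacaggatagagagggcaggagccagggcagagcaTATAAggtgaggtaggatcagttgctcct
Hbb-bt upstream: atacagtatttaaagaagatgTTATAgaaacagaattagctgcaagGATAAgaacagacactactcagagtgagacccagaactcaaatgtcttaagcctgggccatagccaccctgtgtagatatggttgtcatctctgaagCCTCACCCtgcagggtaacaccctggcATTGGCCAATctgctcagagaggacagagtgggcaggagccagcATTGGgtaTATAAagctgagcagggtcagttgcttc
Alas2 upstream: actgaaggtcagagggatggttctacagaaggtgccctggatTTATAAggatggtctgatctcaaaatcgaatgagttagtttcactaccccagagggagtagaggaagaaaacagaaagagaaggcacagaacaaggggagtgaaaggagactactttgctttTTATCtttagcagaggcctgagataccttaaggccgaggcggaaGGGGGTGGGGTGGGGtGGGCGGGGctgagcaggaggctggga
GATAA was present in the windows of all 7 matched members, and in 22.6% of 32851 RefSeq windows of the same length. It lay 209 to 205 bases before the start of Hbb-bs and 204 to 200 bases before that of Hbb-bt. CCNCNCCC was found in Hbb-bs, Hbb-bt and Alas2, and in 45.9% of all windows. TATAA was found in the 4 adult globin genes and Alas2 against 22.8% of all windows, and CCAAT in all matched members but Alas2 against 33.9%. The windows of Hba-a1 and Hba-a2 were identical over 247 of 247 bases once shifted by 3 bases. Those of Hbb-bs and Hbb-bt matched at 127 of 249 bases at their best shift of 1 base. No gaps were allowed in this comparison, and the marked letters are spaced differently in these windows. The count can therefore miss likeness on either side of a gap, and how alike the adult beta genes are upstream was not settled. These matches are letters in a window, not measured binding, and their relation to levels across libraries was not tested.

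The libraries held 29909000 to 32613500 counts in the Prox1 knockout group and 32863500 to 42318200 in wildtype, to 6 digits. Mitochondrial genes took 0.351 to 0.403% of the counts in Prox1 knockout libraries and 0.259 to 0.342% in wildtype libraries, so both depth and this share were separate between the groups. Prox1 itself had 134 to 147 CPM (counts-per-million, scaled between libraries by TMM) in the libraries labelled knockout and 106 to 115 CPM in wildtype, and was higher by 0.33 ± 0.05 on the log2 scale (SE, adjusted p = 0.0298 in the quasi-likelihood test of edgeR, Benjamini-Hochberg adjusted over all tested genes). The targeted gene thus goes against its label, and a count over the whole gene cannot tell if its floxed stretch was removed. "Prox1 KO" below means the library labelled knockout. Markers of hair cells and supporting cells were present in all libraries, with 10 of 10 tested and a summed level of 1345 to 1451 CPM in Prox1 KO against 1367 to 1475 CPM in wildtype.

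The alpha globin genes were the most abundant members. Hba-a1 had 906, 466, 665 and 650 CPM in Prox1 KO libraries 1 to 4, against 1248, 578, 780 and 961 CPM in wildtype libraries 1 to 4. Hba-a2 had 657, 384, 501 and 485 CPM in Prox1 KO, against 1097, 486, 660 and 704 CPM in wildtype. In both genes wildtype 1 was the highest library and Prox1 KO 2 the lowest, and the groups overlapped. Hba-a1 averaged 672 ± 181 CPM in Prox1 KO and 892 ± 284 CPM in wildtype (SD, n = 4 each), which is -0.41 ± 0.22 as a log2 fold change (SE, edgeR adjusted p = 0.650). Hba-a2 averaged 507 ± 113 CPM in Prox1 KO and 737 ± 258 CPM in wildtype, which is -0.54 ± 0.21 as a log2 fold change (edgeR adjusted p = 0.644). With both copies summed, alpha globin averaged 1179 ± 293 CPM in Prox1 KO and 1628 ± 538 CPM in wildtype (log2 fold change -0.47 ± 0.22, edgeR adjusted p = 0.647). None of these differences passed the threshold of 0.05.

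The adult beta globin genes, whose chains pair with alpha chains in haemoglobin, showed nearly the same order of libraries. Hbb-bs had 612, 347, 442 and 448 CPM in Prox1 KO, against 1024, 428, 568 and 633 CPM in wildtype. Hbb-bt had 382, 212, 246 and 276 CPM in Prox1 KO, against 658, 264, 333 and 419 CPM in wildtype. The groups overlapped again, with Prox1 KO 1 above wildtype 2 and 3 in both genes and Prox1 KO 4 above wildtype 2. Hbb-bs averaged 462 ± 110 CPM in Prox1 KO and 663 ± 256 CPM in wildtype (log2 fold change -0.52 ± 0.23, edgeR adjusted p = 0.647). Hbb-bt averaged 279 ± 73.4 CPM in Prox1 KO and 418 ± 172 CPM in wildtype (log2 fold change -0.58 ± 0.24, edgeR adjusted p = 0.647). The summed beta copies averaged 741 ± 183 CPM in Prox1 KO and 1081 ± 427 CPM in wildtype, a log2 fold change of -0.54 ± 0.23 with an edgeR adjusted p of 0.647. Without wildtype 1 the log2 fold change shrank to -0.28 in Hbb-bt, -0.23 in Hbb-bs, -0.28 in Hba-a2 and -0.20 in Hba-a1, so each of the 4 differences was smaller without that library than with it. Without Prox1 KO 2 the differences also shrank, to -0.27 in Hba-a1, -0.43 in Hba-a2, -0.41 in Hbb-bs and -0.47 in Hbb-bt. Without Prox1 KO 1 they grew, to -0.59 in Hba-a1, -0.69 in Hba-a2, -0.69 in Hbb-bs and -0.77 in Hbb-bt. Without wildtype 2 they were -0.57, -0.70, -0.68 and -0.75 in the same order.

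**Figure D1:**
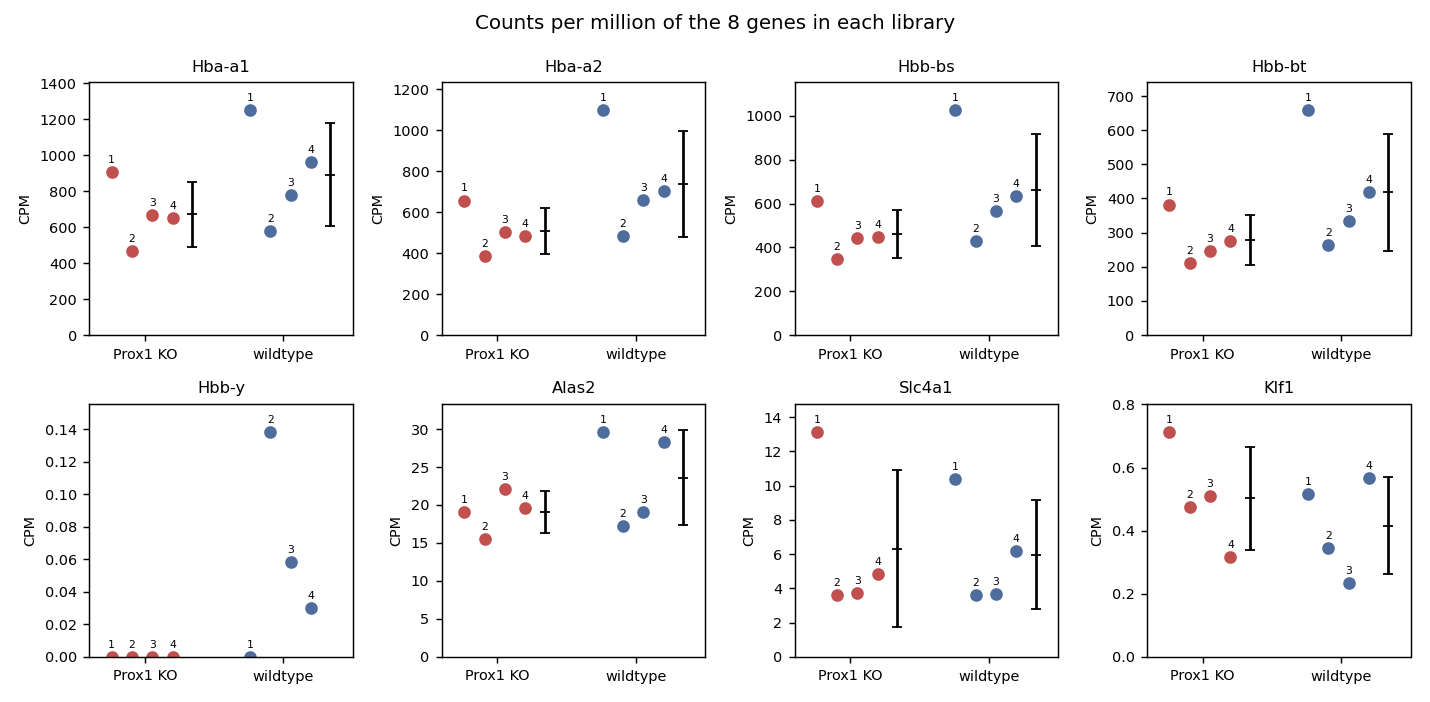
Each panel plots 1 gene, with CPM on a linear axis from 0 for Prox1 KO libraries (red, left) and wildtype libraries (blue, right). Numbers are the library numbers, and black bars are the mean ± SD of 4 libraries, left out for Hbb-y. Wildtype 1 is the highest point for the 4 adult globins and Alas2, and Prox1 KO 1 for Slc4a1 and Klf1.

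Hbb-y, the embryonic beta-like globin, was close to absent. It had 0 counts in all 4 Prox1 KO libraries, against 0, 6, 2 and 1 counts in wildtype libraries 1 to 4. The 0 counts in Prox1 KO allow up to 0.0235 CPM over the group (3 counts of its total, for counting error only). Wildtype had 0.0598 CPM on 9 counts, a ratio of 2.54. That ratio takes the 9 wildtype counts as exact, so it is not a lower bound on the difference. Of these, 6 came from wildtype 2, which had the lowest adult globin levels of its group, and wildtype 1, with the highest adult globins, had none. Without wildtype 2 the wildtype group held 3 counts (0.0277 CPM), and the ratio to the 0.0235 CPM of Prox1 KO fell to 1.18. The ratio of 2.54 thus rested on that library. Hbb-y was below the filter on low counts and was not tested. The other embryonic globins were as scarce: Hba-x, the embryonic alpha-like gene, had 9 counts in Prox1 KO in all and 8 in wildtype, and Hbb-bh1 had 0 in every library.

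Alas2 encodes the red cell form of aminolevulinate synthase, which starts haem synthesis. It had 19.1, 15.5, 22.1 and 19.6 CPM in Prox1 KO, against 29.6, 17.3, 19.1 and 28.3 CPM in wildtype. Wildtype 1 and 4 were the high libraries here as for the globins, while Prox1 KO 1 ranked 6 of 8, lower than its place for the globins. The means were 19.1 ± 2.71 CPM in Prox1 KO and 23.6 ± 6.28 CPM in wildtype (log2 fold change -0.30 ± 0.17, edgeR adjusted p = 0.651). Without wildtype 1 the log2 fold change was -0.18.

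Slc4a1 encodes band 3, the anion exchanger of the red cell membrane. It had 13.1, 3.63, 3.74 and 4.82 CPM in Prox1 KO, against 10.4, 3.61, 3.69 and 6.18 CPM in wildtype. Library 1 stood above the other 3 in both groups, and the groups overlapped almost throughout. The means were 6.33 ± 4.56 CPM in Prox1 KO and 5.97 ± 3.18 CPM in wildtype (log2 fold change 0.08 ± 0.43, edgeR adjusted p = 0.970). Its direction was not stable: the log2 fold change was -0.56 without Prox1 KO 1, -0.11 without wildtype 2 and -0.10 without wildtype 3, and 0.49 without wildtype 1.

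Klf1 encodes the Krüppel-like factor that switches on the adult beta globin gene in developing red cells. It was at the edge of detection, with 21, 16, 17 and 10 counts in Prox1 KO and 20, 15, 8 and 19 counts in wildtype. In CPM these were 0.712, 0.476, 0.508 and 0.315 in Prox1 KO, against 0.517, 0.345, 0.234 and 0.568 in wildtype. The ranges lay over each other, and the log2 fold change was 0.27 ± 0.35 (edgeR adjusted p = 0.830). It was 0.063 without Prox1 KO 1 and 0.084 without wildtype 3, and 0.43 without Prox1 KO 4 and 0.44 without wildtype 4.

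Of the 8 members, 7 passed the filter on low counts, 0 were called higher and 0 lower at an adjusted p of 0.05. Over all 20581 tested genes, edgeR called 0.034% higher and 0.0583% lower, 0.0923% in all. At an unadjusted p of 0.05 the test held 3 members lower (Hba-a2, Hbb-bs and Hbb-bt) and 0 higher, where 2.78% of all tested genes were lower and 4.76% higher; DESeq2 also called 0 members. Groups did not overlap in 0 members, against 1.62% of all tested genes lower and 2.07% higher without overlap. The log2 fold change was below 0 in 5 of 7 members, with a median of -0.41, beside 50% of all tested genes and a median of 0.00. The median of the members was -0.20 without wildtype 1, -0.27 without Prox1 KO 2, -0.59 without Prox1 KO 1 and -0.57 without wildtype 2. The globins moved together across libraries, so their like signs are not separate observations. The authors' deposited table gave log2 fold changes of -0.41 for Hba-a1, -0.55 for Hba-a2, -0.53 for Hbb-bs and -0.59 for Hbb-bt, with adjusted p-values of 0.682 to 0.770. In bulk RNA, fewer red cells and less globin RNA per red cell cannot be told apart, and the part of depth and mitochondrial share, which also separated the groups, was not tested.

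Together the 8 members had 2590, 1428, 1881 and 1884 CPM in Prox1 KO, against 4067, 1777, 2364 and 2751 CPM in wildtype. The 4 adult globins made up nearly all of this. They took 0.252, 0.146, 0.190 and 0.181% of all counts in Prox1 KO, against 0.390, 0.180, 0.226 and 0.277% in wildtype. Adult globin reads were thus below 1% of the counts in each of the 8 libraries. The summed level averaged 1946 ± 480 CPM in Prox1 KO and 2740 ± 971 CPM in wildtype, and the highest Prox1 KO library stood above 2 of the 4 wildtype libraries.

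Levels between members were compared per kilobase of transcript, using the longest protein-coding transcript of each gene in GENCODE vM21. In Prox1 KO libraries the mean CPM per kilobase was 961 for Hba-a1, 915 for Hba-a2, 736 for Hbb-bs, 397 for Hbb-bt, 9.36 for Alas2, 1.39 for Slc4a1 and 0.329 for Klf1. In wildtype libraries it was 1276 for Hba-a1, 1330 for Hba-a2, 1056 for Hbb-bs, 595 for Hbb-bt, 11.6 for Alas2, 1.31 for Slc4a1, 0.272 for Klf1 and 0.0895 for Hbb-y. The ranges of Hba-a1, Hba-a2 and Hbb-bs overlapped in each group, yet within a library both alpha genes stood above Hbb-bs in 8 of 8 libraries. Hba-a1 stood above Hba-a2 in 4 of 8 per kilobase, with transcripts of 699 and 554 bases taken. In CPM without this scaling Hba-a1 was the higher in each library. The order of these copies, whose counts are also uncertain, thus depended on the lengths taken. The ranges of Hbb-bs and Hbb-bt overlapped in wildtype (681 to 1631 and 376 to 936) but not in Prox1 KO (552 to 975 and 302 to 544), and Hbb-bs was above Hbb-bt in 8 of 8 libraries. Below Hbb-bt each step, to Alas2, to Slc4a1 and to Klf1, was larger than the spread in both groups.

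Within a library alpha and beta globin kept a nearly fixed proportion while their amount changed. The ratios between copies, given beside it, rest on the uncertain split of reads and may be set by how reads were counted. The ratio of alpha to beta globin CPM was 1.57, 1.52, 1.70 and 1.57 in Prox1 KO, against 1.39, 1.54, 1.60 and 1.58 in wildtype. The ratio of Hba-a1 to Hba-a2 was 1.38, 1.21, 1.33 and 1.34 in Prox1 KO, against 1.14, 1.19, 1.18 and 1.36 in wildtype. Wildtype 1, which had the most globin, had the lowest value of both ratios. The ratio of Hbb-bs to Hbb-bt was 1.60, 1.63, 1.79 and 1.62 in Prox1 KO, against 1.56, 1.62, 1.71 and 1.51 in wildtype. All 3 ratios overlapped between the groups, and they spanned a far narrower range than the globin levels themselves, whose highest library had 2.68 times the lowest for Hba-a1.

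The red cell genes outside the globins did not keep a fixed proportion. Alas2 amounted to 0.747, 1.10, 1.19 and 1.05% of the adult globin CPM in Prox1 KO, against 0.735, 0.984, 0.817 and 1.04% in wildtype. Slc4a1 amounted to 0.513, 0.257, 0.202 and 0.259% in Prox1 KO, against 0.258, 0.206, 0.158 and 0.228% in wildtype. Library 1 was the lowest of each group for Alas2 per globin and the highest of each group for Slc4a1 per globin. Taken as 1 sum, Alas2, Slc4a1 and Klf1 amounted to 1.29 to 1.42% of globin in Prox1 KO and 0.984 to 1.29% in wildtype, ranges that met at Prox1 KO 1 and wildtype 4.

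**Figure D2:**
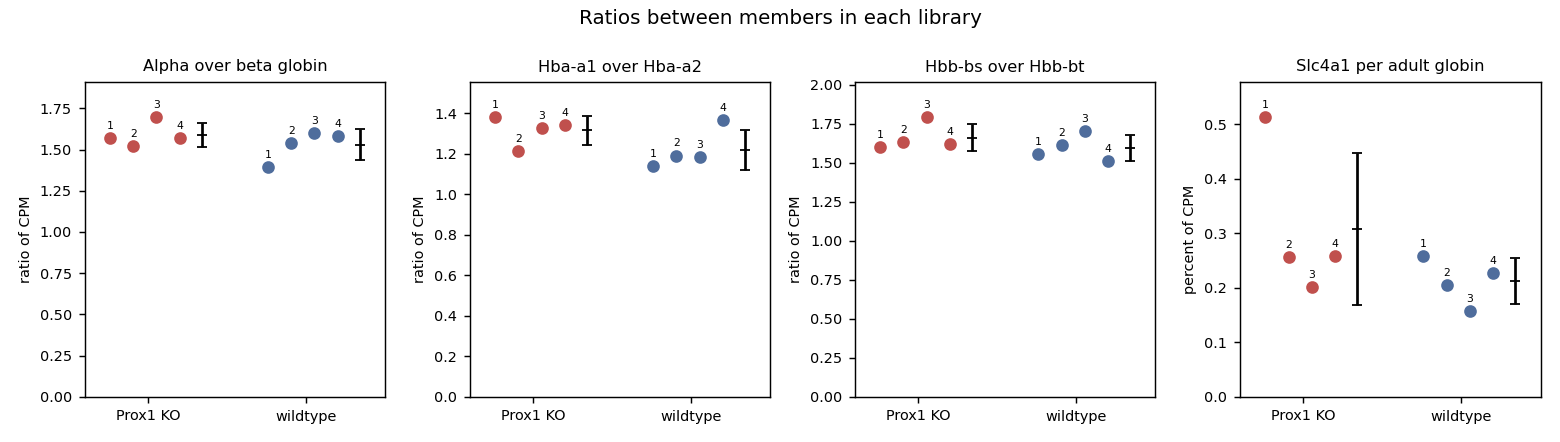
The panels show, from left, the ratio of alpha to beta globin CPM, Hba-a1 to Hba-a2, Hbb-bs to Hbb-bt, and Slc4a1 as a percent of adult globin CPM, for Prox1 KO (red, left) and wildtype (blue, right) libraries, with black bars for the mean ± SD of 4. The globin ratios lie in a narrow band in both groups, and Slc4a1 per globin is highest in Prox1 KO 1 at 0.513%.

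Globin levels varied widely between libraries of a group, compared with genes of at least 10 CPM on average. The globins lie far above 10 CPM, and genes at their own level were not set apart. The SD of log2 CPM within Prox1 KO was 0.39 for Hba-a1, 0.32 for Hba-a2, 0.34 for Hbb-bs and 0.36 for Hbb-bt, where the median over 10993 genes with a mean of at least 10 CPM was 0.09. Within wildtype it was 0.47 for Hba-a1, 0.48 for Hba-a2, 0.53 for Hbb-bs and 0.56 for Hbb-bt, with a median of 0.10 over the same genes. The 4 globins thus stood between the 97.7 and 99.2 percentile of spread in Prox1 KO and between the 98.7 and 99.6 percentile in wildtype. Alas2 stood at 93.0 in Prox1 KO and 97.7 in wildtype. Slc4a1, among all 20581 tested genes, stood at 99.3 in Prox1 KO and 97.5 in wildtype.

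**Figure D3:**
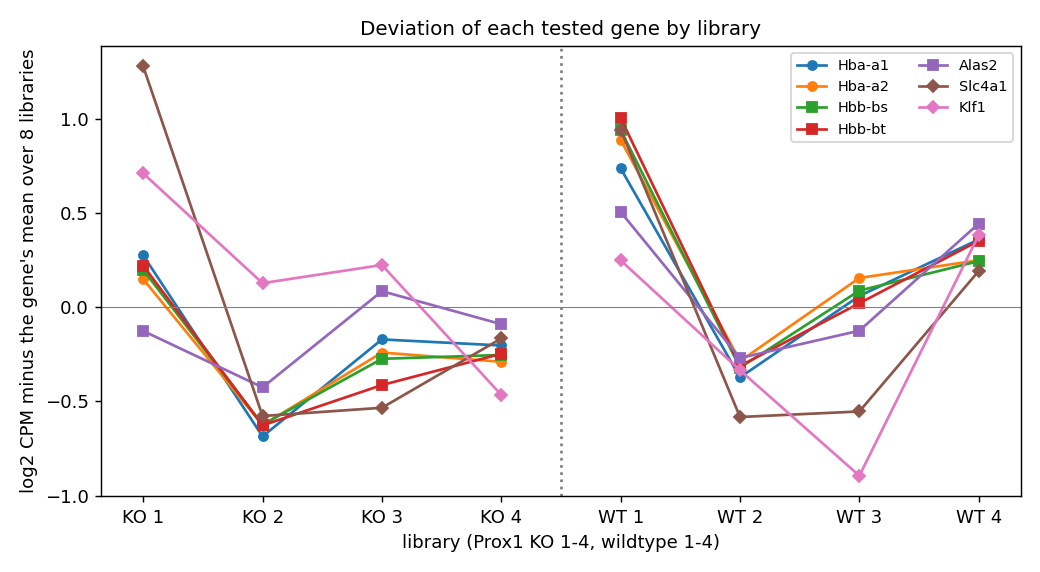
The y axis gives log2 CPM minus the mean of that gene over the 8 libraries, and the x axis the Prox1 KO libraries 1 to 4 and then the wildtype libraries 1 to 4. Lines join the values of 1 gene only to let it be followed, since libraries have no order. The globins move as 1 bundle, highest in wildtype 1 and lowest in Prox1 KO 2, while Slc4a1 and Klf1 are highest in Prox1 KO 1.

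Genes of the pathways around haemoglobin were looked at next, since many of them also work outside red cells. Beside the counts below 0 that follow, 50% of all 20581 tested genes lay below 0. Small negative values were common, with 6433 genes between -0.1 and 0. No list was tested as a set. In haem synthesis, 12 of 12 listed genes were tested and 0 were called, with 11 below 0 and a median log2 fold change of -0.07. Fech encodes ferrochelatase, which puts iron into haem, and had 45.6, 45.4, 45.2 and 48.1 CPM in Prox1 KO, against 59.3, 45.4, 54.4 and 51.1 CPM in wildtype (log2 fold change -0.19 ± 0.07, edgeR adjusted p = 0.644). Alad, the most abundant gene of that list, had a log2 fold change of -0.14 ± 0.06. The summed level of haem synthesis genes was 395 to 434 CPM in Prox1 KO and 436 to 456 CPM in wildtype, without overlap. The nearest libraries stood close, at 434 and 436 CPM, and the sum was not tested. In iron supply, 11 of 11 genes were tested and 0 were called, with 9 below 0 and a median of -0.06. Tfrc, the transferrin receptor, had a log2 fold change of -0.20 ± 0.09, and Ftl1, the ferritin light chain, one of -0.09 ± 0.07.

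Genes of the red cell body did not pass the test either. Of the list of red cell membrane and skeleton, 16 of 19 genes were tested and 0 were called, with 10 below 0 and a median of -0.05. Gypc, a membrane glycoprotein of red cells, had a log2 fold change of -0.22 ± 0.09, and Add1, a skeleton protein made in many cell types, one of -0.08 ± 0.06. Of the list of red cell enzymes and maturation, 12 of 14 genes were tested and 0 were called, with 10 below 0 and a median of -0.11. Bpgm makes the metabolite that loosens oxygen from haemoglobin. It had 29.5, 25.5, 25.8 and 27.5 CPM in Prox1 KO, against 35.6, 30.2, 32.1 and 29.8 CPM in wildtype. Each Prox1 KO value was below each wildtype value, yet the log2 fold change of -0.24 ± 0.07 had an edgeR adjusted p of 0.569. Prdx2, an abundant peroxidase of red cells and of other cells, had a log2 fold change of -0.11 ± 0.08.

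Among the erythroid regulators, 16 of 18 genes were tested, 1 was called lower and 0 higher, with 6 below 0 and a median of 0.03. The called gene was Tal1, a transcription factor of blood and vessel precursors that also works in neurons. It had 2.31, 1.37, 1.20 and 0.757 CPM in Prox1 KO, against 7.53, 7.83, 8.20 and 7.77 CPM in wildtype, with no overlap (log2 fold change -2.48 ± 0.24, edgeR adjusted p = 0.000755). Across the wildtype libraries Tal1 stayed within 7.53 to 8.20 CPM while Hba-a1 spanned 578 to 1248 CPM. Within Prox1 KO it was highest in library 1, as the adult globins were, but lowest in library 4, where the globins were not lowest. With the mean log2 CPM of the tested members as a covariate, the log2 fold change of Tal1 was -2.42 ± 0.25 (edgeR adjusted p = 0.00342). The part of carried blood in the Tal1 difference was not tested. Ldb1, the most abundant regulator of the list and a partner of Tal1 in red cell precursors, had a log2 fold change of 0.07 ± 0.07.

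**Figure D4:**
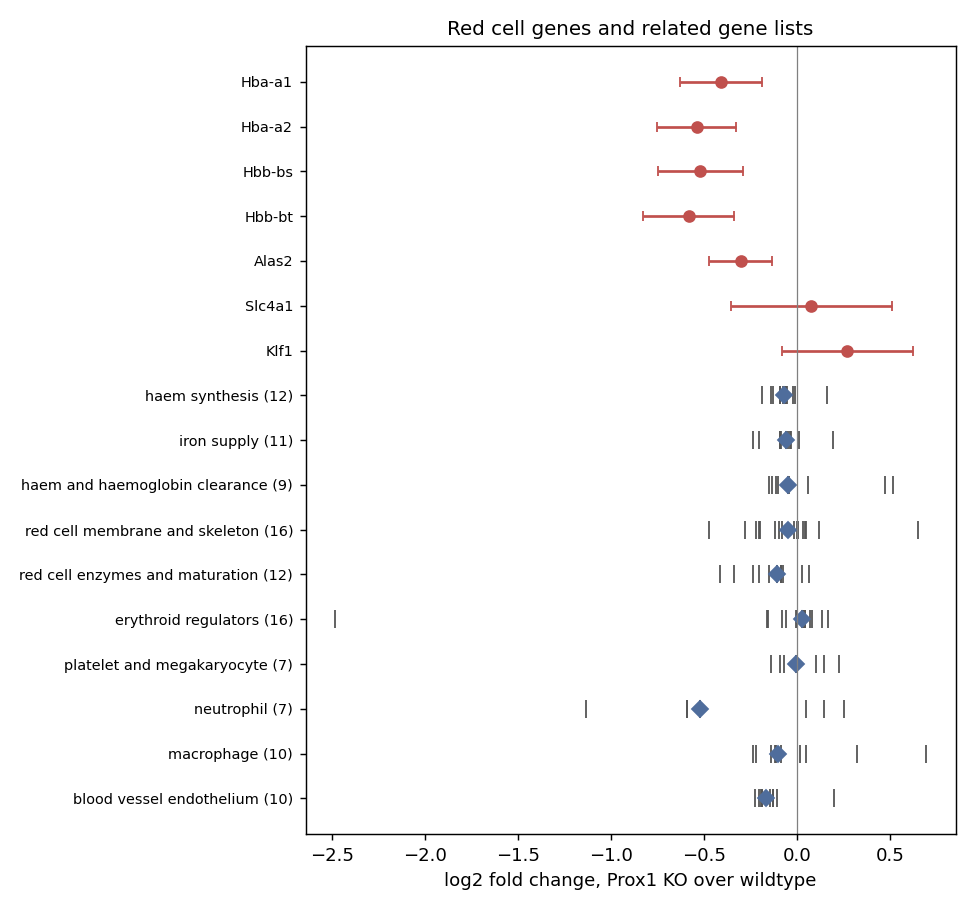
The x axis is the log2 fold change of Prox1 KO over wildtype, below 0 where Prox1 KO is lower. Red points with bars are the 7 tested members with their SE, ticks are single genes of a list, diamonds are list medians and numbers in brackets are the genes tested. The 4 adult globins and Alas2 lie left of 0, Slc4a1 and Klf1 have bars that cross 0, and the lone tick near -2.48 is Tal1.

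Genes that clear free haem and haemoglobin showed no call among the 9 tested of 10, with 6 below 0 and a median of -0.05. Lrp1, a large receptor that takes up haem bound to hemopexin among many other ligands, had 1170 to 1255 CPM in Prox1 KO and 1286 to 1421 CPM in wildtype without overlap, and a log2 fold change of -0.15 ± 0.06 (edgeR adjusted p = 0.643). It made up most of the list's summed level, which was 1298 to 1370 CPM in Prox1 KO and 1399 to 1549 CPM in wildtype.

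White cells could come with the same blood, and markers of vessel cells were looked at beside them. Neutrophil markers had 7 of 12 genes tested, 0 called, 4 below 0 and a median of -0.52, all at low levels. Their summed level was 5.32, 3.18, 5.83 and 4.29 CPM in Prox1 KO, against 9.52, 4.49, 3.92 and 5.53 CPM in wildtype. Wildtype 1 was the highest library and Prox1 KO 2 the lowest, as for the globins, but wildtype 3 was low here and not for the globins. Ngp, a protein of neutrophil granules, had 0.475, 0.149, 0.538 and 0.347 CPM in Prox1 KO, against 1.53, 0.483, 0.527 and 0.777 CPM in wildtype (log2 fold change -1.14 ± 0.45, edgeR adjusted p = 0.644). Prtn3, the most abundant neutrophil gene listed, had a log2 fold change of 0.15 ± 0.20. Blood vessel endothelium had 10 of 10 genes tested, 0 called, 9 below 0 and a median of -0.17, with a summed level of 403 to 421 CPM in Prox1 KO and 395 to 460 CPM in wildtype. Flt1, a receptor for vascular growth factors, had a log2 fold change of -0.20 ± 0.07 with groups that did not overlap, and Emcn, a surface protein of small vessels, one of 0.20 ± 0.09, both short of the threshold (edgeR adjusted p = 0.586 for Flt1 and 0.647 for Emcn). The part of these cells in the globin values was not tested.

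**Figure D5:**
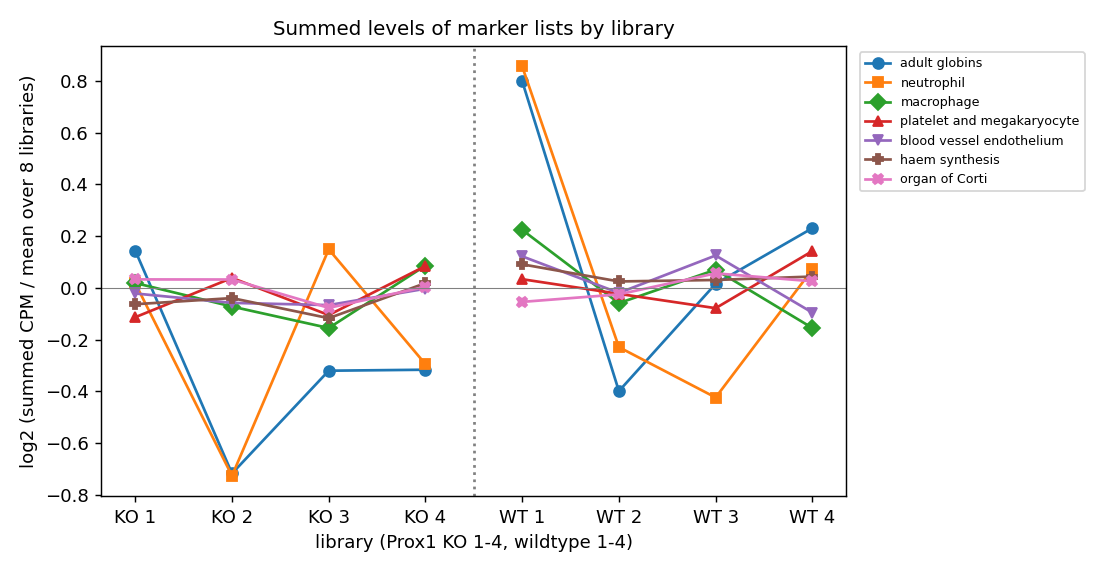
The y axis gives the log2 of the summed CPM of a gene list over its mean in all 8 libraries, and the x axis the Prox1 KO libraries 1 to 4 and then the wildtype libraries 1 to 4. Lines join the values of 1 list and imply no order. Adult globins and neutrophil markers swing widely, with wildtype 1 highest and Prox1 KO 2 lowest for both, while haem synthesis, endothelium and organ of Corti lists stay near 0.

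The genes whose pattern over the 8 libraries was most like that of the members were found by Pearson's r of log2 CPM with the mean log2 CPM of the 7 tested members, over 20574 other genes. The 10 most alike genes had r of 0.936 to 0.972, and 7 of them carry a gene name that is not a clone name. These were Rnf19b (r = 0.972), Isg20 (0.958), Slc25a37 (0.956), Snrnp25 (0.953), Trpv6 (0.952), Lhfpl6 (0.942) and Map1s (0.937). Slc25a37 is mitoferrin, which brings iron into mitochondria for haem, and was in the list of iron supply, and Isg20 was in the list of red cell enzymes and maturation. Slc25a37 had 36.8, 28.1, 33.9 and 31.1 CPM in Prox1 KO, against 41.3, 28.5, 30.2 and 37.8 CPM in wildtype. Its lowest library was Prox1 KO 2 and its highest wildtype 1, as for the globins, over a span of 1.47 times. Snrnp25 lies on chromosome 11 close to the alpha globin genes, with 4 genes between it and Hba-a1 in the RefSeq order of GRCm38.p6. It had 5.90, 4.99, 5.74 and 5.36 CPM in Prox1 KO, against 6.85, 5.16, 5.53 and 6.30 CPM in wildtype. Of the genes between, Rhbdf1 had r = 0.20, Mpg r = 0.05 and Nprl3 r = -0.54, so the likeness did not extend over the whole stretch. Without wildtype 1 and Prox1 KO 1, the libraries farthest from the median, r of the 7 named genes ranged from 0.819 to 0.962. These genes had been picked by r over all 8 libraries, those kept included, so this range is no separate check. All these values are descriptions over libraries that differ in depth, and 24 genes in all had r of at least 0.9. A search of 20574 genes over only 8 libraries gives some high r by chance. How many it gives was not tested, so the likeness of a single gene may be chance.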

How the data were processed

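Total RNA of organ of Corti went through depletion of ribosomal RNA and library preparation with NEBNext Ultra II, as the labels' protocols give it. Per the submitters' processing notes, the tools were HISAT2 2.2.1, cutadapt 4.3, FastQC 0.12.1, DESeq2 and featureCounts, and the build was GRCm39. The sources used here give no annotation, no strand setting and no rule for reads that match several places. For each library the authors deposited raw counts of every gene, per the file headers. They also deposited group means of counts and a mean of normalized counts, as a signal, and group SDs, none of which entered a test. The authors' deposited DESeq2 table gives a log2 fold change with its SE, a test score (the Wald statistic) and p-values. Its direction is not stated, and its signs match Prox1 knockout over wildtype as labelled. Columns of per-sample values left unused number 0.

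Of 41079 genes, 20581 passed filterByExpr of edgeR (minimum count 10). Scaling was by TMM, also for the CPM values. The quasi-likelihood test of edgeR 4.0.16 in R 4.3.3 was fitted to all 8 libraries, with genotype as the factor. P-values were adjusted after Benjamini and Hochberg over the 20581 genes, and the threshold was 0.05. Fold changes are of the libraries labelled knockout over wildtype. Libraries held 29909000 to 42318200 counts, to 6 digits. The floor for 0 counts is 3 counts over the group and covers counting error only. Libraries of 1 group differed by more than sampling noise in each pair (lowest chi-square per degree of freedom 10.7). Alternatives were other scalings and filters, DESeq2 1.42.0, limma-voom (limma 3.58.1), a replicate block, a red cell score (mean log2 CPM of the 7 tested members) as a covariate, other thresholds and each library left out. Leaving out both libraries numbered 1 together, summing near-identical globin copies and leaving out wildtype libraries for the ratio of Hbb-y were chosen after the data were seen.

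The members and the 14 other gene lists were chosen with earlier results of these data known. Genes named are the 8 members, Prox1, up to 3 called genes of each list or else its gene with the smallest p, the most abundant gene of each list, and the 10 genes most like the members, of which clone names are counted but not named. Genes outside this rule are the neighbours of Hba-a1 and the embryonic globins Hba-x and Hbb-bh1, chosen after their values were seen. Sequences come from RefSeq (GRCm38.p6) and GENCODE vM21 (GRCm38), assemblies older than GRCm39, so their coordinates are not those of the count tables.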

Additional observations from a re-analysis of the deposited data

Results flagged for a closer look

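Slc4a1 in Prox1 KO 1 stood far from the rest of its group, at 13.1 CPM against 3.63 to 4.82 CPM in the other 3 Prox1 KO libraries, with a gap to the nearest of them of 0.874 of the whole range. The ratio of Hbb-bs to Hbb-bt in Prox1 KO 3 was 1.79, against 1.60 to 1.63 in the other 3 Prox1 KO libraries, a gap of 0.841 of the range. Both gaps exceed Dixon's 95% critical value for 4 libraries. Such gaps were sought in 54 groups of values and found in 2, and chance gives about 1 in 20.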

How the results depend on the processing

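Members called higher or lower numbered 0 in all 20 alternatives, and the lists held 1 call among erythroid regulators and 0 elsewhere in all 21. The 4 adult globins and Alas2 kept a log2 fold change below 0 and Klf1 one above 0 in every alternative that tested them. Hbb-bt ranged from -0.77 to -0.28 and Hba-a2 from -0.70 to -0.28 over the alternatives, both closest to 0 without wildtype 1, with adjusted p of 0.0982 to 0.985 for Hbb-bt and 0.111 to 0.985 for Hba-a2. With 1 library left out Alas2 ranged from -0.43 to -0.18 and Klf1 from 0.063 to 0.44. Slc4a1 turned below 0 with limma-voom (-0.022), without both libraries numbered 1 (-0.14), without Prox1 KO 1 (-0.56), without wildtype 2 (-0.11) and without wildtype 3 (-0.10), and ranged from -0.56 to 0.49 with 1 library left out.

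Over all genes, 7 were called higher and 12 lower. The count of higher genes was 4 with library totals alone, 12 with no filter, 35 with DESeq2, 3 with the replicate block, 4 with the red cell score, 2 without both libraries numbered 1 and 2 at an adjusted p of 0.01. The count of lower genes was 24 with no filter, 48 with DESeq2 and 7 without both libraries numbered 1. With 1 library left out it was 2 to 7 higher and 8 to 20 lower. The cause was not tested.

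Over all genes the replicate numbers did not pair the libraries. Deviations of same-numbered libraries correlated across genes at 0.112, 0.214, -0.275 and -0.137, and 2 of 8 libraries correlated best with their own number. The adult globins did share an order by number, with library 1 highest and library 2 lowest within each group. What the numbers stand for is not given in the labels. With the replicate block the log2 fold change of Hbb-bt was -0.53 ± 0.08 (edgeR adjusted p = 0.0982) and that of Hba-a2 -0.50 ± 0.08 (edgeR adjusted p = 0.111). The SEs of Hbb-bt and Hba-a2 were 0.24 and 0.21 without the block, and it changed no call of a member. Depth limits Hbb-y and Klf1, which rest on 0 to 6 and 8 to 21 counts a library.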

Other observations

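Globins that work outside red cells were present at low levels. Cygb, cytoglobin, a haem protein of fibroblast-like cells, had 7.29, 6.15, 8.40 and 7.98 CPM in Prox1 KO, against 9.29, 7.41, 7.14 and 8.18 CPM in wildtype, with a log2 fold change of -0.10 ± 0.13. Of the 4 genes of that list, 3 were tested and 0 were called.

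No marker of other blood cells passed the test. Of 12 lymphocyte markers 1 was tested, Ighm, the heavy chain of immunoglobulin M, with 1.44 to 2.10 CPM in Prox1 KO and 1.38 to 1.96 CPM in wildtype. Of 12 platelet and megakaryocyte markers 7 were tested and 0 were called, with a median log2 fold change of -0.01. Itgb3, an integrin chain of platelets and other cells, was both the most abundant and the one with the smallest p, at -0.14 ± 0.09. Of 10 macrophage markers 10 were tested and 0 were called, with a summed level of 82.0 to 96.9 CPM in Prox1 KO and 82.0 to 107 CPM in wildtype. Aif1, a calcium-binding protein of macrophages, had a log2 fold change of 0.69 ± 0.36, and Mrc1, the mannose receptor, one of 0.01 ± 0.10. Among the organ of Corti markers, 0 of 10 were called, and Fgfr3, a receptor of supporting cells, had 84.4 to 95.8 CPM in Prox1 KO and 96.9 to 101 CPM in wildtype without overlap (log2 fold change -0.13 ± 0.05, edgeR adjusted p = 0.622). Gjb2, the connexin of cochlear supporting cells, had a log2 fold change of 0.06 ± 0.07.

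With the red cell score as a covariate, 14 of the 19 genes called over all genes were called again by edgeR's quasi-likelihood test, all 14 with the same sign, and no others. Among the genes no longer called was Prox1, at 0.34 ± 0.05 on the log2 scale (edgeR adjusted p = 0.0829).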
